A study of Danio rerio with 4 samples.

Results

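Genes of the translation factors were followed in nearly whole zebrafish embryos at 6 somites, 12 h after fertilization, in wild-type controls and in tbx1 mutants. They were chosen by symbol alone: eif or eef followed by a digit, etf1, gspt1 and pabpc, in lower case as the deposited table writes them. This gave 81 of the 32538 genes in the table. Each genotype had 2 libraries of polyadenylated RNA. The mutants carried the vgo (van gogh) allele of tbx1, a T-box transcription factor gene, and are called null in the labels; the controls are labelled WT. The tail tip and a little yolk had been cut away for genotyping, so the RNA came from the rest of the embryo. The labels do not say how many embryos a library holds, so the p-values cover no more than the spread among these 4 libraries, and that spread may be technical.

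Translation starts when eIF2, loaded with GTP and the initiator tRNA, joins the small ribosomal subunit together with eIF1, eIF1A, eIF3 and eIF5. The cap-binding protein eIF4E, the scaffold eIF4G and the helicase eIF4A bring in the mRNA, and poly(A)-binding proteins tie its tail to its cap. eEF1A then delivers aminoacyl-tRNAs, eEF2 moves the ribosome along, and the release factors eRF1 and eRF3 end the chain. Control acts mainly at 3 points: kinases that phosphorylate eIF2 and so block its exchange factor eIF2B, 4E-BP proteins that hold eIF4E away from eIF4G, and a kinase that inactivates eEF2. Nearly every cell needs these factors, while several of them have paralogs of restricted expression.

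Of the 81 genes, 73 had a usable estimate in all 4 libraries and a mean of at least 1 FPKM (fragments per kilobase of transcript, scaled to the size of the library), the minimum for a test. A further 7 lay below that minimum. The remaining one, eef1a1l1, which encodes an eEF1A, was listed at 0 in all 4 libraries with the status HIDATA, a status shared by 11 genes of the table. That 0 is a failed estimate and was not used. Another 16 genes, such as EIF4G1 and EIF3F, carry capital letters in the table and fall outside the rule. Read totals were not available. The authors' 95% intervals for tested translation factor genes had median relative half-widths of 3.45% (control 1), 3.58% (control 2), 3.73% (mutant 1) and 3.76% (mutant 2). However, 26.0% of these genes' values lay outside their own interval, so the intervals are not firm bounds. For some genes this held in all 4 libraries. Values of eif4ebp2, eif4ebp3l, eif4ea, eif4eb, eif1axa, eif4a1a, eif4g2a, eif3m and eif3i lay above their intervals. Those of eef2b, eef1g, eif5a, eif5a2, eif4a3, eif3d, eif2s1 and eif2c4 lay below. The levels, ranks and shares of such genes are less certain. The targeted gene was checked first: tbx1 (ENSDARG00000031891, Zv9 chromosome 5 from 16906409 to 16919398) stood at 9.08 and 9.14 FPKM in wild-type and 4.91 and 4.52 FPKM in mutant embryos, lower in both mutants.

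In the comparison that the series states, mutants against controls, the translation factor genes differed very little. Of the 73 tested genes, 0 were higher and 0 were lower at an adjusted p of 0.05 in limma. Of all 13448 genes tested 0.0669% passed, 0.0297% higher and 0.0372% lower. The median log2 difference, mutant minus control on the log2(FPKM + 0.5) scale, was 0.010, beside 0.017 over all genes tested. The targeted gene tbx1 did not pass either, at a log2 difference of -0.88 (unadjusted p = 0.000287, adjusted p = 0.227 in limma). A missing call therefore does not show that a gene was unchanged. There were 39 genes higher and 34 lower in the mutants. This put 46.6% of them on the lower side, where 42.8% of all genes tested lay. The split moved with the scaling, to 24 lower after quantile normalization and 42 lower after median-ratio rescaling. For 71 of the 73 genes the log2 difference was within 0.2 (97.3%, beside 87.7% of all genes). The 95% interval of the difference lay wholly within 0.5 on the log2 scale for 64 genes (87.7%, beside 71.3% of all genes) and within 1 for 72 (98.6%, beside 95.6%). The translation factor genes are also more abundant than most, and the spread of the log2 difference shrinks with abundance. Both mutant values lay above both control values for 8 genes and below for 7, together 20.5%, where 24.8% of all genes tested showed no overlap (15.6% above, 9.14% below). An unadjusted limma p under 0.05 was reached by 2 genes, 1 higher and 1 lower, which is 2.74% against 1.99% of all genes tested (1.08% higher, 0.907% lower). Both are loci of eif2b1 on chromosome 5, the chromosome of tbx1.

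**Figure D1:**
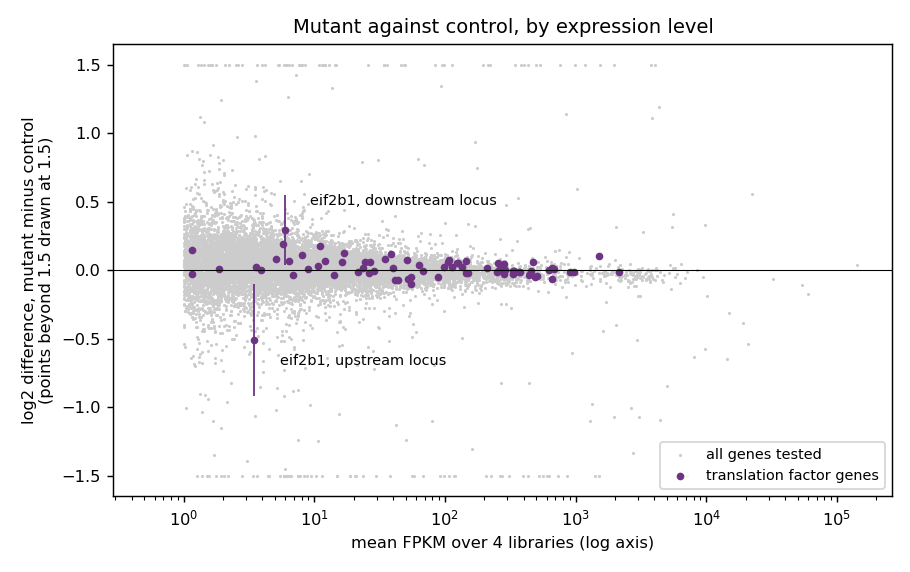
Log2 difference between mutants and controls (mean of 2 libraries each) against mean FPKM on a log axis, for all 13448 genes tested (grey) and the 73 translation factor genes (purple). The bars on the eif2b1 loci are 95% intervals from limma; apart from these loci, at -0.51 and 0.29, all translation factor genes lay within 0.2 of 0.

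As a group the factors were abundant. Their median mean level was 88.0 FPKM, against 8.39 FPKM over all genes tested, and 61 of the 73 lay above that overall median. There were 35 above 100 FPKM, of 1088 such genes in all, and 9 above 500 FPKM. The gene eef1a1l1, without a usable estimate, could not be ranked. Among the 73 tested genes the top of the list was eef2b, which encodes the translocase eEF2, at 2229 and 2095 FPKM in wild-type and 2132 and 2138 FPKM in mutant embryos. Next came pabpc1a, a cytosolic poly(A)-binding protein gene, followed by eif5a and eef1g. Summed over the 73 genes, the FPKM came to 16665 and 16411 in the controls and 16578 and 16581 in the mutants, so the mutant sums lay between the control sums. At the other end, pabpc4 (mean 1.15 FPKM) and the Argonaute gene eif2c3b (1.16) lay just above the minimum, and eef2l2 (0.936) and the interferon-type eIF2 kinase gene eif2ak2 (0.481) just below it.

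**Figure D2:**
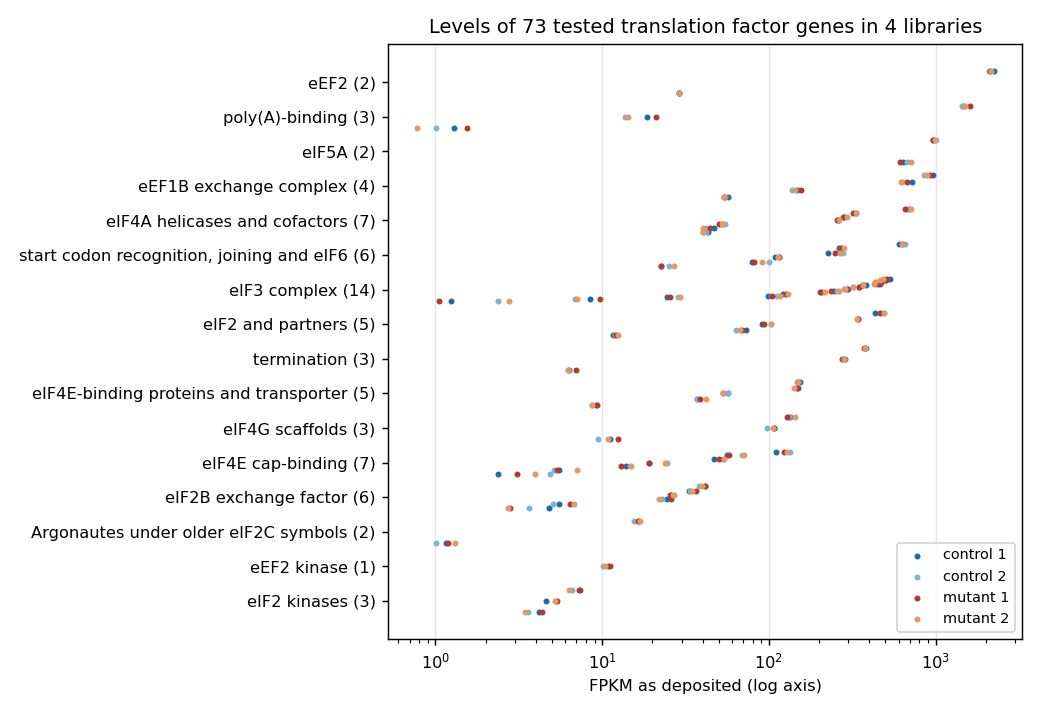
FPKM as deposited, on a log axis, of the 73 tested translation factor genes in each of the 4 libraries, grouped by role with the number of genes in brackets. Each row of 4 points is 1 gene; the points of most genes nearly coincide, and mean levels run from 1.15 FPKM for pabpc4 to 2148 FPKM for eef2b.

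The eIF2 pathway held the only 2 genes with an unadjusted p under 0.05. eIF2B, the exchange factor that reloads eIF2 with GTP, is built of 5 kinds of subunit, and its alpha subunit gene eif2b1 appears at 2 loci in the Zv9 table. The one at the lower coordinate (ENSDARG00000088185, chromosome 5 from 72507488 to 72514410), here called the upstream locus, stood at 4.78 and 3.63 FPKM in wild-type and 2.82 and 2.74 FPKM in mutant embryos. Both mutant values lay below both control values. The log2 difference was -0.51 (SE 0.155, 95% interval -0.92 to -0.10; unadjusted p = 0.0245, adjusted p = 1.0 in limma). The downstream locus (ENSDARG00000091402, chromosome 5 from 72581786 to 72589323) stood at 5.53 and 5.05 FPKM in wild-type and 6.42 and 6.76 FPKM in mutant embryos. Here both mutant values lay above both control values. The authors' 95% intervals overlapped, at 4.31 to 6.20 and 3.87 to 5.70 FPKM in wild-type and 5.04 to 7.19 and 5.25 to 7.66 FPKM in mutant embryos. The log2 difference was 0.29 (SE 0.0972, 95% interval 0.036 to 0.55; unadjusted p = 0.0328, adjusted p = 1.0 in limma).

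With 1 library left out in turn the signs held, but an unadjusted p under 0.05 was kept only by the upstream locus without control 2 (unadjusted p = 0.0127, adjusted p = 1.0 in limma). Its log2 difference was -0.33 without control 1 and -0.69 without control 2.

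The differences of the eif2b1 loci were opposite in sign, and their sum was much the same in both genotypes. Added together, which was done after seeing the values, the loci gave 10.3 and 8.68 FPKM in wild-type and 9.24 and 9.50 FPKM in mutant embryos. The mutant sums lay between the control sums. The mean sum was 9.50 ± 1.16 FPKM in wild-type and 9.37 ± 0.181 FPKM in mutant libraries (SD, n = 2 per genotype), and limma gave it a log2 difference of -0.014 (95% interval -0.30 to 0.27, adjusted p = 1.0). The upstream locus held 46.3% and 41.8% of the sum in the controls but 30.5% and 28.9% in the mutants. That is a mean of 44.1% ± 3.23 against 29.7% ± 1.15 (SD, n = 2 each). These shares could not overlap, since the loci already differed in opposite directions without overlap, so they are no further result. The loci are 67376 bp apart with 2 other genes between them, and RefSeq's gene table for the GRCz12tu assembly holds 1 gene named eif2b1. The sources used here do not give how reads matching both loci were shared out, so a change in 1 copy and a change in how reads were divided cannot be told apart.

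**Figure D3:**
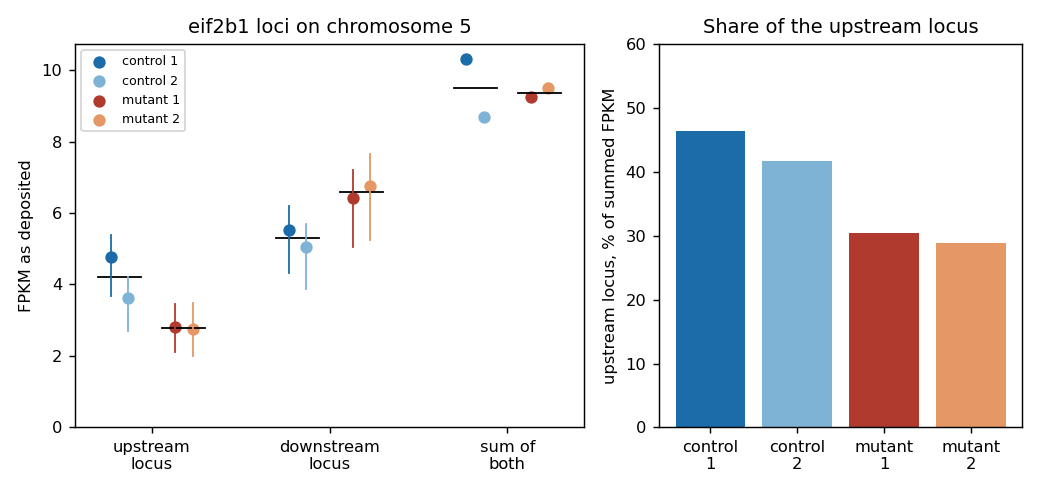
Left, FPKM of the upstream and downstream eif2b1 loci and their sum in each library, with group means as black lines and the authors' 95% intervals as coloured lines; right, share of the sum held by the upstream locus. The share was 46.3% and 41.8% in the controls and 30.5% and 28.9% in the mutants, while the sums overlapped.

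These loci are 2 of the 5 tested translation factor genes on chromosome 5. Of all 779 genes tested on chromosome 5, 8.34% had an unadjusted limma p under 0.05, against 1.59% of the genes elsewhere. The upstream locus starts 55588090 bp beyond the end of tbx1. The nearest tested genes outside the pair of loci had unadjusted limma p-values above 0.05. They were BX510999.1 (log2 -0.21, unadjusted p = 0.229) and gtf2h3 (log2 -0.015, unadjusted p = 0.895). The remaining tested translation factor genes of chromosome 5 showed overlapping groups. eif1axa, encoding an eIF1A, stood at 78.9 and 101 FPKM in wild-type and 81.5 and 90.8 FPKM in mutant embryos. eif4a1b, an eIF4A helicase gene, stood at 47.2 and 41.9 FPKM in wild-type and 44.6 and 40.2 FPKM in mutant embryos. eif4e1b, a cap-binding gene known in fish and mammals mainly from germ cells and eggs, stood at 2.36 and 4.86 FPKM in wild-type and 3.08 and 3.93 FPKM in mutant embryos. The untested eef2l2 on the same chromosome stood at 0.906 and 0.877 FPKM in wild-type and 0.967 and 0.993 FPKM in mutant embryos, without overlap but below the minimum.

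The other eIF2B subunit genes stayed close together. eif2b4, the delta subunit gene, stood at 33.2 and 33.7 FPKM in wild-type and 36.6 and 34.5 FPKM in mutant embryos. Its groups did not overlap, but the log2 difference was only 0.084 (SE 0.0698, unadjusted p = 0.286, adjusted p = 1.0 in limma). eif2b2 (beta) lay between 38.3 and 41.5 FPKM, eif2b3 (gamma) between 22.1 and 25.8 FPKM and eif2b5 (the catalytic epsilon) between 25.4 and 27.0 FPKM, each with overlapping groups. At a mean of 3.49 and 5.94 FPKM, the separate eif2b1 loci were the lowest of the 6 eIF2B genes.

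Genes of eIF2 itself had similar levels in both genotypes. eif2s2, the beta subunit gene, stood at 434 and 489 FPKM in wild-type and 467 and 493 FPKM in mutant embryos. eif2s3, the GTP-binding gamma subunit gene, lay between 336 and 343 FPKM in all 4 libraries. The alpha subunit, the one phosphorylated under stress, was supplied by both eif2s1l (91.0 to 103 FPKM) and eif2s1 (63.5 to 72.7 FPKM). eif2d, a factor that can load initiator tRNA without eIF2, stood at 11.5 and 12.0 FPKM in wild-type and 12.2 and 12.5 FPKM in mutant embryos; the groups did not overlap, at a log2 difference of 0.068 (unadjusted p = 0.416, adjusted p = 1.0 in limma).

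The kinases that phosphorylate eIF2 were expressed at low levels in both genotypes. The endoplasmic reticulum stress kinase gene eif2ak3 (PERK) was the highest, at 7.33 and 6.64 FPKM in wild-type and 7.25 and 6.35 FPKM in mutant embryos. The haem-regulated kinase gene eif2ak1 stood at 4.63 and 5.28 FPKM in wild-type and 5.35 and 5.19 FPKM in mutant embryos. The amino acid-sensing kinase gene eif2ak4 (GCN2), on an unplaced Zv9 scaffold, lay between 3.45 and 4.34 FPKM. The groups overlapped for each of these.

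eIF3, the large scaffold on which the initiation complex assembles, had 15 genes, of which 14 were tested: 6 were higher and 8 lower, and 0 had an unadjusted limma p under 0.05. The highest were eif3m at 530 and 497 FPKM in wild-type and 514 and 481 FPKM in mutant embryos, and eif3g at 507 and 492 FPKM in wild-type and 500 and 463 FPKM in mutant embryos. eif3ea and eif3i followed at means of 453 and 443 FPKM. Lower along the range came eif3d (368 FPKM), eif3ha (334), eif3s6ip (290), eif3ba (251), eif3c (209), eif3s10 (126) and eif3ja (108). The minor paralogs eif3jb (26.9 FPKM), eif3eb (8.06) and eif3hb (1.86) were far lower, and eif3bb, at a mean of 0.0129 FPKM, was not tested. Per length, the RNAs of these subunits thus spanned, minor paralogs aside, from 126 FPKM for eif3s10, which encodes the largest subunit, eIF3a, to 506 FPKM for eif3m, with the loosely bound eIF3j lower still. Outside the symbol rule, EIF3F, another subunit gene, stood higher, at a mean of 599.5 FPKM. Within that order, eif3m and eif3g overlapped over libraries, as did eif3g, eif3ea and eif3i. eif3s10 was the only eIF3 gene without overlap, at 122 and 126 FPKM in wild-type and 126.2 and 131 FPKM in mutant embryos, a log2 difference of 0.049 (unadjusted p = 0.475, adjusted p = 1.0 in limma).

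Cap-binding genes showed the widest choice of paralogs. The most abundant was eif4e1c, at 110 and 135 FPKM in wild-type and 123 and 129 FPKM in mutant embryos. eif4ea, the ortholog named EIF4E in the name table, stood at 56.0 and 69.2 FPKM in wild-type and 57.7 and 70.5 FPKM in mutant embryos, and eif4eb at 19.1 and 24.4 FPKM and at 19.1 and 23.9 FPKM. For both genes the libraries numbered 2 were the high ones in each genotype. eif4e2, of the class that represses rather than promotes translation, stood at 5.49 and 5.13 FPKM in wild-type and 5.34 and 7.02 FPKM in mutant embryos, so mutant 2 alone was high. Its relative eif4e2rs1 lay between 46.6 and 53.8 FPKM, and eif4e3 between 13.0 and 14.9 FPKM.

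The 4E-BP genes, which encode the repressors of eIF4E, held the lowest p-values after eif2b1, although both missed the threshold by far. eif4ebp3 stood at 56.8 and 56.9 FPKM in wild-type and 53.0 and 52.8 FPKM in mutant embryos. These replicates agree closely and the groups did not overlap. The log2 difference was -0.10 (SE 0.0611, 95% interval -0.26 to 0.058, unadjusted p = 0.157, adjusted p = 1.0 in limma). eif4ebp2 differed the other way, at 37.2 and 37.2 FPKM in wild-type and 38.8 and 42.1 FPKM in mutant embryos, again without overlap (log2 0.12, SE 0.0734, unadjusted p = 0.173, adjusted p = 1.0 in limma). The more abundant eif4ebp1, at 154 and 148 FPKM in wild-type and 149 and 150 FPKM in mutant embryos, and eif4ebp3l, between 142 and 150 FPKM, had overlapping groups. eif4enif1, encoding the protein that carries eIF4E into the nucleus, lay between 8.70 and 9.25 FPKM.

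The helicase eIF4A and its cofactors were led by eif4a1a, at 691 and 671 FPKM in wild-type and 659 and 712 FPKM in mutant embryos. eif4a3, whose product marks spliced mRNA in the exon junction complex, lay between 319 and 335 FPKM, and the cofactor gene eif4h between 257 and 262 FPKM. eif4a2 stood at 52.6 and 54.7 FPKM in wild-type and 50.1 and 52.4 FPKM in mutant embryos (log2 -0.067, unadjusted p = 0.372, adjusted p = 1.0 in limma). The paralogs of the cofactor eIF4B differed in opposite directions by small amounts. eif4ba stood at 43.0 and 41.9 FPKM in wild-type and 40.5 and 40.3 FPKM in mutant embryos (log2 -0.071), and eif4bb at 279 and 281 FPKM in wild-type and 281.3 and 296 FPKM in mutant embryos (log2 0.044), each without overlap and with an adjusted p of 1.0 in limma. Of the eIF4G scaffolds within the symbol rule, eif4g2b lay between 129 and 143 FPKM and eif4g2a between 98.0 and 108 FPKM. Outside the rule, the EIF4G1 loci stood at means of 135, 29.5 and 13.8 FPKM. eif4g3b stood at 11.1 and 9.46 FPKM in wild-type and 12.5 and 10.9 FPKM in mutant embryos. Its mutant value was the higher one within each library number, by 0.16 and 0.19 on the log2 scale, but the groups overlapped (log2 0.18, SE 0.123, unadjusted p = 0.214, adjusted p = 1.0 in limma).

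Among factors of start codon recognition and subunit joining, eif1b stood at 602 and 658 FPKM in wild-type and 629 and 632 FPKM in mutant embryos. eif5, whose product triggers GTP hydrolysis by eIF2, lay between 265 and 281 FPKM, and eif1axb between 225 and 276 FPKM. The joining GTPase gene eif5b lay between 22.4 and 27.0 FPKM, and eif6, which encodes a factor that keeps the large subunit apart, between 109 and 115 FPKM. The eIF5A genes, whose product carries the modified residue hypusine and helps ribosomes past difficult stretches, were both abundant. eif5a stood at 962 and 1007 FPKM in wild-type and 960 and 986 FPKM in mutant embryos, and eif5a2 at 634 and 676 FPKM in wild-type and 611 and 716 FPKM in mutant embryos. None of these 7 genes had groups without overlap.

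For elongation, eef2b was joined by far smaller amounts of eef2a.1 (28.8 to 29.0 FPKM in all 4 libraries) and eef2a.2 (0.223 to 0.407 FPKM). The log2 difference of eef2b was -0.018 (95% interval -0.23 to 0.20, adjusted p = 1.0 in limma). eef2k, the gene of the kinase that inactivates eEF2, lay between 10.1 and 11.1 FPKM. The eEF1B complex, which reloads eEF1A with GTP, was led by eef1g at 966 and 858 FPKM in wild-type and 921 and 885 FPKM in mutant embryos, and eef1b2 at 719 and 629 FPKM in wild-type and 669 and 616 FPKM in mutant embryos. Both were lower in the library numbered 2 of each genotype. eef1db stood at 147 and 138 FPKM in wild-type and 155 and 144 FPKM in mutant embryos, and eef1da at 57.0 and 54.9 FPKM in wild-type and 53.9 and 53.9 FPKM in mutant embryos. Only eef1da had groups without overlap (log2 -0.054, unadjusted p = 0.435, adjusted p = 1.0 in limma). Of the eEF1A genes within the symbol rule, which encode the tRNA carrier, only eef1a1a and eef1a1b had an estimate, at means of 0.0854 and 0.0337 FPKM, both below the minimum.

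Termination and poly(A)-binding genes differed by small amounts. etf1 (eRF1) stood at 380 and 377 FPKM in wild-type and 372 and 376 FPKM in mutant embryos, and gspt1l (eRF3) at 286 and 284.1 FPKM in wild-type and 275 and 283.7 FPKM in mutant embryos. Neither pair of groups overlapped, yet the log2 differences were only -0.017 and -0.029, with an adjusted p of 1.0 each in limma. gspt1 lay between 6.26 and 6.93 FPKM. pabpc1a stood at 1468 and 1431 FPKM in wild-type and 1611 and 1504 FPKM in mutant embryos. Its groups did not overlap and the mean ratio was 1.07, with a log2 difference of 0.10 (SE 0.0802, 95% interval -0.11 to 0.31, unadjusted p = 0.258, adjusted p = 1.0 in limma). pabpc1b stood at 18.5 and 13.7 FPKM in wild-type and 21.1 and 14.3 FPKM in mutant embryos, a wider gap between numbers than between genotypes. pabpc1l, which in other vertebrates is known from eggs and early embryos, lay between 0.315 and 0.369 FPKM.

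The symbol rule also took in 2 Argonaute genes that older names count as eIF2C. Argonautes bind small RNAs and are not initiation factors. eif2c4 stood at 16.6 and 15.6 FPKM in wild-type and 16.5 and 16.9 FPKM in mutant embryos, and eif2c3b at 1.16 and 1.003 FPKM in wild-type and 1.19 and 1.31 FPKM in mutant embryos. Only eif2c3b had groups without overlap (log2 0.14, unadjusted p = 0.413, adjusted p = 1.0 in limma).

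These genes differed more between library numbers than between genotypes. For 53 of the 73 (72.6%) the log2 difference between the libraries numbered 2 and those numbered 1 was larger in size than that between genotypes, as it was for 64.4% of all genes tested. Both values of number 2 lay above both of number 1 for 21 genes and below for 26, together 64.4%, where 52.6% of all genes tested showed no overlap by number (23.9% above, 28.7% below). The widest gap among tested genes was that of eif3hb, at 1.24 and 1.06 FPKM in the libraries numbered 1 and at 2.38 and 2.76 FPKM in those numbered 2 (control first). Higher in both libraries numbered 2 were also eif4e1b, eif4eb, eif4ea, eif1axa, eif1axb, eif5b, eif3ja and eif3jb. Lower in both were pabpc1b, pabpc4, eif3eb, eif2ak4, eif4a1b, eef1b2 and eif3ha. These genes were picked for their values. The labels do not say what the number stands for, and its part in any genotype difference was not tested beyond the blocked fit. Within each number, the median of the 73 log2 differences between mutant and control was -0.0026 for number 1 and 0.013 for number 2.

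**Figure D4:**
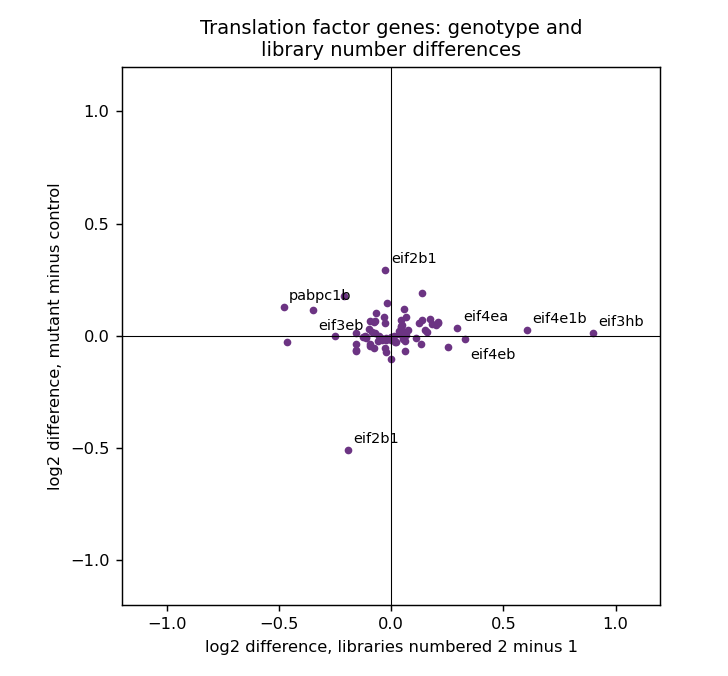
Log2 difference between genotypes (vertical) against log2 difference between libraries numbered 2 and numbered 1 (horizontal) for the 73 tested translation factor genes, on log2(FPKM + 0.5), each point the mean of 2 differences. The points spread from -0.48 to 0.90 along the number axis, while all but the eif2b1 loci lie within 0.2 of 0 along the genotype axis.

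Where a factor has paralogs, the balance between them differed little between the genotype means. In 17 families of paralogs covering 42 genes (the eif2b1 loci not counted), the share of a gene in its family's summed FPKM differed between the genotype means by at most 1.67 percentage points. In 6 families the leading gene held more than 95% in every library, as eef2b did with 98.6% to 98.7% and pabpc1a with 98.6% to 99.0%. In such families a change of the minor paralog can hardly move a share. Others were shared: eif5a held 57.9% to 61.1% against eif5a2, eif2s1l 55.6% to 61.7% against eif2s1, and eif4g2b 54.4% to 57.6% against eif4g2a. Among the 4E-BP genes, eif4ebp1 and eif4ebp3l held 38.2% to 38.7% and 36.7% to 38.2%. The share of eif4ebp3 was 14.2% and 14.7% in the controls and 13.6% and 13.7% in the mutants. That of eif4ebp2 was 9.34% and 9.61% in the controls and 9.98% and 10.9% in the mutants. In 6 of the 17 families, eIF4A, eIF4B, 4E-BP, eIF1A, eEF1D and eRF3, some share did not overlap between genotypes, by at most those 1.67 points between the means. Shares within a family depend on each other and each family offers several, so this count has no counterpart over all genes. Of single genes tested, 24.8% showed no overlap between genotypes. Reads shared between close paralogs make each share uncertain. The share of the upstream eif2b1 locus differed by -14.4 percentage points between the genotype means. That value is not comparable with the families, since the eif2b1 loci were singled out by their p-values. They were also low, at means of 3.49 and 5.94 FPKM.

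**Figure D5:**
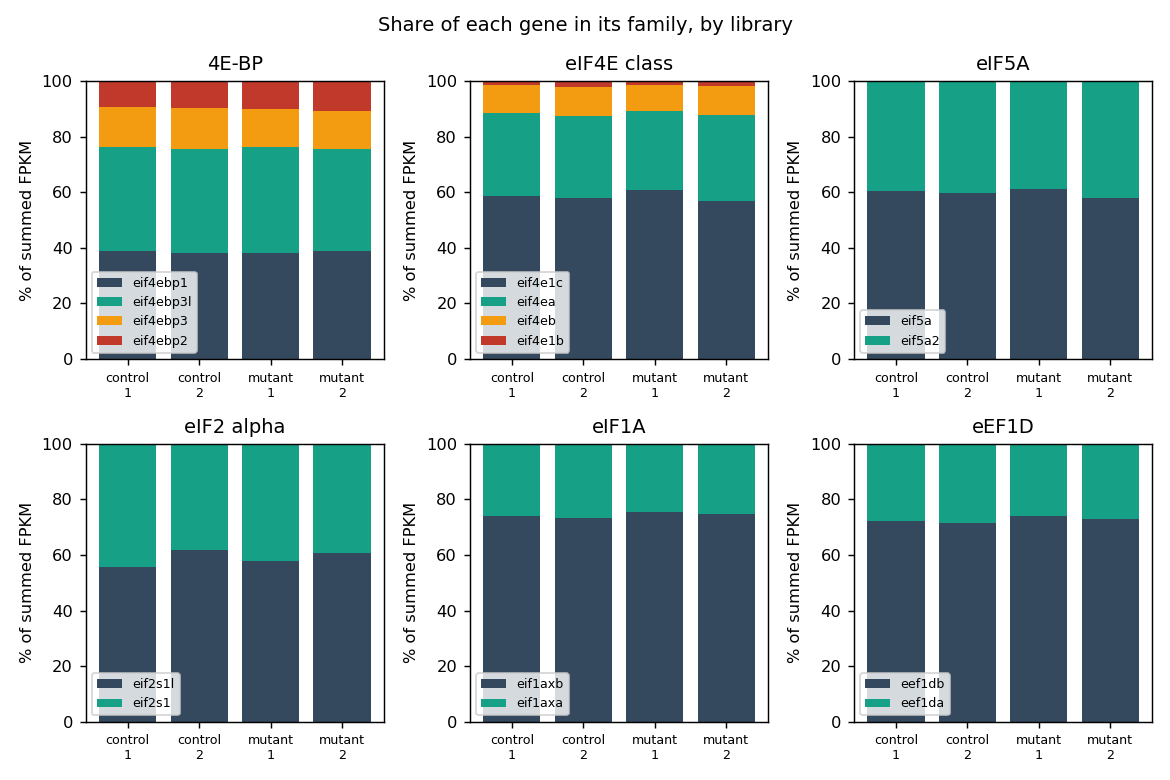
Share of each gene in the summed FPKM of its family, in percent, for 6 families with more than 1 substantial member, 1 bar per library. The divisions sit at similar heights in all 4 libraries, for example 57.9% to 61.1% for eif5a. The widest spread was that of eIF2 alpha, with 55.6% to 61.7% for eif2s1l.

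Other genes of the pathway, from lists chosen along with the factors, gave 0 called genes in either direction at an adjusted p of 0.05 in limma. Of 19 cytosolic aminoacyl-tRNA synthetase and scaffold genes, which charge tRNAs, 14 were higher and 5 lower (median 0.017), but 9 were higher and 10 lower after median-ratio rescaling, with vars at 0.099 and nars at 0.072. Of 15 mTORC1 and cap signalling genes, 5 were higher and 10 lower (median -0.018, or -0.038 after median-ratio rescaling), with pdcd4b, an eIF4A inhibitor gene, at -0.10 and the kinase gene mknk2b at 0.082. Of 14 integrated stress response genes, 6 were higher and 8 lower (median -0.0082), or 4 and 10 after median-ratio rescaling. Of its main effector genes, atf4b1 stood at 324 and 293 FPKM in wild-type and 297 and 282 FPKM in mutant embryos. The paralog atf4b2 stood at 76.6 and 78.8 FPKM in wild-type and 77.3 and 78.1 FPKM in mutant embryos. The stress factor gene atf3 stood at 1.71 and 2.35 FPKM in wild-type and 6.92 and 1.49 FPKM in mutant embryos, so mutant 1 alone was high.

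Ribosome recycling and rescue genes, 10 tested, had a median of 0.0069 (-0.013 after median-ratio rescaling), with pelo, which helps free stalled ribosomes, at -0.089. The 16 poly(A) partner and deadenylation genes had a median of 0.022 (0.0021 after median-ratio rescaling). Among them paip1, encoding a partner of poly(A)-binding protein on chromosome 5, stood at 6.79 and 6.08 FPKM in wild-type and 7.41 and 7.20 FPKM in mutant embryos (log2 0.17, unadjusted p = 0.139, adjusted p = 1.0 in limma). The 7 hypusine and diphthamide enzyme genes, which modify eIF5A and eEF2, had a median of -0.022 (-0.041 after median-ratio rescaling), with dohh at -0.061. The 13 RNA-binding and nascent chain regulators had a median of 0.011 (-0.0089 after median-ratio rescaling), with ddx3 at 0.077. Of the 9 mitochondrial translation factors (median -0.018, or -0.050 after quantile normalization and -0.038 after median-ratio rescaling), gfm2, a ribosome recycling factor gene of mitochondria, was the only gene of these lists with an unadjusted limma p under 0.05. It stood at 6.43 and 5.40 FPKM in wild-type and 4.69 and 4.34 FPKM in mutant embryos (log2 -0.35, SE 0.122, unadjusted p = 0.0378, adjusted p = 1.0 in limma), and it too lies on chromosome 5.

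Beside the translation factors, 2 other groups of protein-making and protein-degrading machinery leaned to the lower side by small amounts. Of 77 tested cytosolic ribosomal protein genes, 63 were lower in the mutants (median -0.041), but 38 were lower after quantile normalization and 74 after median-ratio rescaling, and within library numbers their medians were 0.011 for number 1 and -0.094 for number 2. Of 40 tested proteasome subunit genes, 34 were lower (median -0.039), 27 after quantile normalization and 36 after median-ratio rescaling, with -0.059 and -0.025 within numbers 1 and 2. For the translation factors it was 34 of 73. None of these differences between groups was tested, and 0 genes of either comparison group passed an adjusted p of 0.05 or an unadjusted p of 0.05 in limma.

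Markers of other cell types in these nearly whole embryos, where fewer cells and less RNA per cell cannot be told apart, were set beside these values. The summed level of 13 yolk syncytial layer genes ran from 9449 to 10600 FPKM in the controls and from 8744 to 9904 FPKM in the mutants. For 14 enveloping layer genes it ran from 8729 to 9952 and from 8835 to 9770 FPKM, with krt18 left out for want of a usable estimate, and for 12 muscle genes from 189 to 211 and from 187 to 192 FPKM. For 5 hatching gland genes with a usable estimate it ran from 501 to 577 and from 562 to 664 FPKM. All 5 were higher in the mutants (median log2 difference 0.19, and 0.19 and 0.20 within numbers 1 and 2). There was no overlap for 3 of them, where 24.8% of all genes tested showed none. Of 11 tested yolk syncytial layer genes, 9 were lower (2 of the 11 without overlap). Of 10 tested muscle genes, 7 were lower (1 of the 10 without overlap). Of the 14 enveloping layer genes, 8 were higher (4 of the 14 without overlap, among them evpla, which was lower). Of the hatching gland genes, the protease gene ctsl1b had the lowest unadjusted p (0.0277, adjusted p = 1.0 in limma). For 9 germ line and maternal genes, relevant to eif4e1b and pabpc1l, the summed level ran from 48.5 to 50.1 in the controls and from 38.9 to 46.5 FPKM in the mutants. The muscle list held tnni2a.4, listed at 0 in all 4 libraries, and no other marker with a usable estimate was at 0. Only the germ line and maternal sums did not overlap, although 3 of the 7 tested genes were higher and 4 lower. One gene carried this, the maternal TGF-beta gene dvr1, at 15.7 and 14.7 FPKM in wild-type and 11.3 and 8.06 FPKM in mutant embryos (unadjusted p = 0.0144 in limma, not called). Without it the sums were 34.4 and 33.8 FPKM for the controls against 35.2 and 30.8 FPKM for the mutants, and overlapped. The part of these markers in the values of the translation factors was not tested.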

How the data were processed

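Polyadenylated RNA of 6-somite embryos, without the tail tip and a little yolk, was read as paired ends on an Illumina HiSeq, per the labels' protocols. The deposited values are FPKM made by the authors, each with 95% bounds and a status word; the column titles read RPKM, while a loose line of titles at the end of the table reads FPKM, per the file headers. The Zv9 (danRer7) build and, without role or order, Cuffdiff 2.0.2, Cufflinks 2.1.1, TopHat and TopHat2 2.0.8 stand in the submitters' processing notes. Coordinates are as deposited. Counts and depth per library are unknown, so the deposited bounds are the only precision given.

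Values were used as log2(FPKM + 0.5), which understates the differences of low genes. Genes with status OK in all 4 libraries and a mean of at least 1 FPKM were fitted with limma 3.58.1 in R 4.3.3 (genotype only, empirical Bayes with trend, two-sided, 4.66 degrees of freedom with a prior of 2.66), with Benjamini-Hochberg adjustment over all 13448 genes and a threshold of 0.05. No exact permutation test was used, since its smallest p is 0.333 for 2 libraries per group. The fit was also run on simulated data with independent noise in each library. Same-numbered libraries deviated together in the real data, so that run does not show how the fit behaves here. Members and lists were chosen with earlier results of these data known. Of 81 gene IDs, 71 matched a current symbol in the name table.

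The naming rule took tbx1, genes with an unadjusted p under 0.05, the 12 of lowest p per direction without overlap, the 15 most abundant, the lowest p and highest mean of each role, chromosome 5 genes, those next to the minimum, and the 4 of lowest p per list. Every other member was named to account for all of them, and other genes outside the rule were chosen after their values were seen. A gene that the rule names is not reported here. Alternatives were pseudocounts of 0.1 and 1, no minimum or 5 FPKM, quantile normalization, median-ratio rescaling, the library number as a block, each library left out, no trend, robust empirical Bayes, a threshold of 0.10, and leaving out loci under 300 bp or chromosome 5. Symbols in any case, leaving out the Argonautes and summing the eif2b1 loci were added after seeing the data. Figures were drawn with matplotlib 3.10.9.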

Additional observations from a re-analysis of the deposited data

How the results depend on the processing

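The result that 0 members were called, higher or lower, was kept under every alternative run, including a threshold of 0.10. The lowest adjusted p of any member ran from 0.650 with no minimum to 1.0, while the count over all genes ran from 1 with no minimum to 39 without mutant 1, beside 9 as reported. The number of members with an unadjusted p under 0.05, 2 as reported, was 0 at a mean of at least 5 FPKM, 0 with chromosome 5 left out, 0 with the eif2b1 loci summed, and 0 to 1 with 1 library left out. The minimum of 5 FPKM removes the upstream eif2b1 locus from the test, and leaving out chromosome 5 removes both loci. The median log2 difference was 0.0026 with no minimum, 0.027 after quantile normalization, -0.0087 after median-ratio rescaling and between -0.00043 and 0.0095 with 1 library left out, so its sign is not fixed. The library number carries no meaning in the labels. Same-numbered libraries deviated together, with a correlation of 0.75 over the members and 0.35 over all genes with loci of at least 300 bp, but with 2 pairs they were not treated as paired; the replicate block gave 3 members with an unadjusted p under 0.05, 0 called, and 611 genes with an unadjusted p under 0.05 against 267. The eif2b1 differences kept their signs, from -0.69 to -0.33 upstream over 13 alternatives and from 0.23 to 0.35 downstream over 14. Chromosome 5 genes have no value with that chromosome left out, and low genes none at 5 FPKM. Small differences changed sign. Sign changes were followed only for 77 genes taken by the naming rule, so the other members are not covered. Among the 77, 6 were reversed after quantile normalization and 4 after median-ratio rescaling. After quantile normalization the log2 difference was 0.0043 for eef2b, -0.012 for eif4e1b, 0.036 for eif5a, 0.0045 for eif3d, 0.011 for eif4ebp1 and 0.027 for eef1g, and after median-ratio rescaling -0.018 for eif1b, -0.0044 for eif2b2, -0.0051 for eif5a2 and -0.011 for eif4a1a; the cause was not tested. With 1 library left out in turn the log2 difference spanned 0 for 41 of those 77 genes. Among translation factor genes it ran for eef2b from -0.062 to 0.027, eif4a1b from -0.15 to 0.015, eif4e1c from -0.094 to 0.19, eif1b from -0.062 to 0.066, eif3m from -0.095 to 0.0011, eif4e1b from -0.43 to 0.48, eif3g from -0.11 to 0.0026, eif5a from -0.050 to 0.016, eif3i from -0.090 to 0.019, eif3d from -0.051 to 0.028, eif1axa from -0.23 to 0.12, gspt1 from -0.0016 to 0.13, eef2k from -0.024 to 0.086, eif2b2 from -0.043 to 0.073, eif4ebp1 from -0.050 to 0.0095, eef1b2 from -0.16 to 0.031, eif2s2 from -0.028 to 0.14, eef1g from -0.097 to 0.074, eif5a2 from -0.099 to 0.13, eif4g2b from -0.048 to 0.099, pabpc4 from -0.36 to 0.31, eif2ak3 from -0.13 to 0.052, eif3ea from -0.066 to 0.054, eif4a1a from -0.047 to 0.064, eif2ak1 from -0.0033 to 0.17. Among genes of the other lists it ran for upf3b from -0.035 to 0.18, dhps from -0.12 to 0.010, atf3 from -0.34 to 1.56, znf598 from -0.11 to 0.010, rps6kb1a from -0.16 to 0.00060, btg2 from -0.031 to 0.16, guf1 from -0.32 to 0.036, pan3 from -0.085 to 0.24, MTRF1 from -0.11 to 0.39, impact from -0.24 to 0.030, mtor from -0.0077 to 0.17, smg1 from -0.055 to 0.23, igf2bp1 from -0.026 to 0.21, wdr85 from -0.013 to 0.11, sesn2 from -0.17 to 0.031, dph2 from -0.082 to 0.00084.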
